A study of Homo sapiens with 6 samples.

Results

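The inorganic ion exchangers and cotransporters of the solute carrier families SLC4A, SLC8A, SLC9A, SLC12A, SLC24A and SLC26A were followed in A375, an established human melanoma cell line, after treatment with panobinostat, an inhibitor of histone deacetylases. Members were taken by symbol alone, as every gene whose name is one of these family stems followed by a number, and the rule uses no measured value, although it was set with earlier results of these data known. This gave 47 of 25343 genes in the table: 10 SLC4A, 3 SLC8A, 9 SLC9A, 9 SLC12A, 5 SLC24A and 11 SLC26A genes. Parental A375 cells, with no engineered allele given in the labels, received 50 nM panobinostat for 24 h, or PBS of matched volume as the vehicle, and each group is represented by 3 libraries of bulk RNA. The labels do not say whether the libraries of a group came from separate cultures, so p-values reflect only how far these libraries differ among themselves, and that spread may be technical.

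These carriers move ions across membranes by coupling 1 ion to another, and need no ATP of their own. SLC4A proteins carry bicarbonate and SLC9A proteins exchange sodium for protons, so that both families set the pH of the cytosol and of organelles. SLC12A proteins carry chloride together with sodium, potassium or both, and thereby set cell volume and intracellular chloride. SLC8A and SLC24A proteins use the sodium gradient to expel calcium, the latter with potassium as a further substrate, and SLC26A proteins exchange anions such as sulfate, chloride, iodide and bicarbonate. In pigment cells SLC24A5 is known as a melanosomal exchanger that affects skin colour.

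The sequence upstream of the annotated start is shown for 5 members on which the results turn: SLC24A2, the member with the largest fall, SLC8A2, the one with the most panobinostat counts among those nearly absent in vehicle, SLC12A7 and SLC12A8, relatives that moved in opposite directions, and SLC26A2, the most abundant. Each is the stretch of 250 bases before the RefSeq start (GRCh38.p14), printed 5′ to 3′ on the gene's strand, at chr9:19789038-19789287 (minus strand) for SLC24A2, chr19:47471894-47472143 (minus) for SLC8A2, chr5:1112064-1112313 (minus) for SLC12A7, chr3:125211400-125211649 (minus) for SLC12A8 and chr5:149960508-149960757 (plus) for SLC26A2. These positions are those of RefSeq, since the sources used here name no genome build for the counts. Capitals mark matches, on either strand, to any of 6 motifs, and overlapping matches were each counted. The letters searched were GGGCGG for the GC box, those of the CCAAT box itself, TATAAA for the TATA box, CACGTG for the E-box, TGACGTCA for the cyclic AMP response element and TGANTCA for the AP-1 site.
SLC24A2: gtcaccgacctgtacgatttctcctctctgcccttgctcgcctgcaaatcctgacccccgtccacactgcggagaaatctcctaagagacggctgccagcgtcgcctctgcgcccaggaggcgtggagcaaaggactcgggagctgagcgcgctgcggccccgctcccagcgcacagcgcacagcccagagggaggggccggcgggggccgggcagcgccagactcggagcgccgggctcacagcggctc
SLC8A2: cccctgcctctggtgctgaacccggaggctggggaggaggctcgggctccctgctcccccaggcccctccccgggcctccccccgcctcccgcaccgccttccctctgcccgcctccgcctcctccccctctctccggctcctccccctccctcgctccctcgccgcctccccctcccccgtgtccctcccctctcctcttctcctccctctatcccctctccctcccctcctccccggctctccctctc
SLC12A7: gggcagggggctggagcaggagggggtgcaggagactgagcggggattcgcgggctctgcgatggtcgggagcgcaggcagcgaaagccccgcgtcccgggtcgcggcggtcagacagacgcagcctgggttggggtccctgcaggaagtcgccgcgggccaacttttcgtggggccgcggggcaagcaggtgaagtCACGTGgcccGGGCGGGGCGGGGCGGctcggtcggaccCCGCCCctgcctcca
SLC12A8: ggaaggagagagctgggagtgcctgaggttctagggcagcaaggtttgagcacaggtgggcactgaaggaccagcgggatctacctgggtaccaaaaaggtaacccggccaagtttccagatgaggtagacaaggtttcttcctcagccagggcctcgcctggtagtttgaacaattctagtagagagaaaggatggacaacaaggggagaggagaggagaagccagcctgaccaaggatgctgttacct
SLC26A2: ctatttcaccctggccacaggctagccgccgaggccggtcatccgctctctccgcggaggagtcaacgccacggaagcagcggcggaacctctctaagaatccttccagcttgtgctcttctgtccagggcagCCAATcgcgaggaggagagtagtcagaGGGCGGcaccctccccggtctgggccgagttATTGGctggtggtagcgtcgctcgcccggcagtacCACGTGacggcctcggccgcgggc
SLC12A7 held 4 GC boxes and 1 E-box, and SLC26A2 held 1 GC box, 2 CCAAT matches and 1 E-box. None of the 6 motifs was present in these windows of SLC24A2, SLC8A2 and SLC12A8. Among 35116 windows of this length in the RefSeq table, 42.6% held the GC box, 32% the CCAAT box, 10.7% the TATA box, 6.34% the E-box, 1.65% the cyclic AMP response element and 6.57% the AP-1 site. Among the 57 windows of members these shares were 38.6%, 31.6%, 10.5%, 10.5%, 0% and 7.02%, in the same order. The SLC24A2 window had 25 CG dinucleotides, that of SLC12A7 28, that of SLC26A2 24, that of SLC8A2 14 and that of SLC12A8 3, beside a median of 11 over all windows. RefSeq windows were matched for 37 of the 47 members. With several windows of a gene averaged, the median number of CG dinucleotides was 14.8 for 13 members that rose, 23.5 for 10 that fell and 4.5 for 12 with too few counts to be tested. Those ranges overlapped widely, at 1 to 38, 5 to 40 and 1 to 18 CG dinucleotides. A match is a run of letters, and binding was not measured.

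Library totals were 32293283 to 38944399 counts, at which 3 counts correspond to 0.0774 to 0.0928 CPM, the read count normalised to TMM-scaled library size. Counts of libraries within a group differed by more than sampling noise, with a chi-square per degree of freedom of 1.902 to 9.139, highest between vehicle replicates 1 and 3. The melanoma label was checked against 12 lineage markers. SOX10 (813 ± 56.4 CPM in vehicle, SD, n = 3), ERBB3, S100A1, EDNRB, S100B and MITF were present, whereas of the pigment genes MLANA and TYR had 0 counts in all 6 libraries. The pigment gene PMEL rose from 0.628 ± 0.118 to 194 ± 9.46 CPM, and TYRP1 was also called higher, from 0.235 ± 0.114 to 0.448 ± 0.113 CPM. The summed level of the 12 markers was 2114 to 2250 CPM in vehicle and 867.6 to 930.5 CPM after treatment. Of 9 tested, 6 were lower (SOX10, ERBB3, S100B, S100A1, MITF and PAX3) and 2 higher, beside 41.0% and 41.8% of all genes tested. ERBB3 fell from 1020 ± 14.6 to 120 ± 5.53 CPM. Markers of other cell types summed to 3.07 to 3.67 CPM in vehicle against 23.8 to 23.9 CPM after treatment for 5 epithelial genes, 13.2 to 14.2 and 73.1 to 76.9 CPM for 5 fibroblast genes, 4.96 to 6.17 and 3.58 to 3.90 CPM for 5 leukocyte genes, and 1.497 to 1.84 and 4.86 to 5.52 CPM for 3 endothelial genes. PTPRC and CDH1 were at 0 in every vehicle library, and KRT20 and COL1A1 held most of the epithelial and fibroblast sums with panobinostat. The part of these markers in the results below was not tested. In bulk RNA, fewer cells that express a gene and less RNA per cell cannot be told apart.

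Among calcium exchangers the 3 tested SLC24A genes fell and the 2 tested SLC8A genes rose, SLC8A2 from nearly no vehicle counts. Chloride-importing SLC12A2 and the most abundant member SLC26A2 fell. Tested sodium-dependent bicarbonate transporters rose, except SLC4A7, the most abundant of them in vehicle. Of the 47 members, 33 passed the filter on low counts and were tested by edgeR (quasi-likelihood), with p-values adjusted after Benjamini and Hochberg over all 15499 genes that passed and a threshold of 0.05. Of the 33, 18 rose and 13 fell. Over all genes tested 82.8% were called, 41.8% as higher and 41.0% as lower, so calls in both directions were common among the members (54.5% and 39.4%) as among genes at large. The median log2 fold change was 0.33 over the 33 members and 0.01 over all genes. At least 2-fold changes were found for 10 members that rose and 4 that fell, beside 18.9% and 11.7% of all genes tested. For 31 of the 33 the lowest library of one group lay above the highest of the other, beside 83.4% of all genes. The filter shapes these counts: 5 members (SLC4A5, SLC8A2, SLC9A2, SLC9A3 and SLC26A7) reached its level of 0.277 CPM in all panobinostat libraries but not in all vehicle libraries. Another 2 (SLC24A2 and SLC26A10) reached it in all vehicle libraries but not in all panobinostat libraries. Such genes were tested mainly through the group in which they were high, so the filter favoured the direction of their calls. SLC26A9 reached the level in all libraries of neither group.

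**Figure D1:**
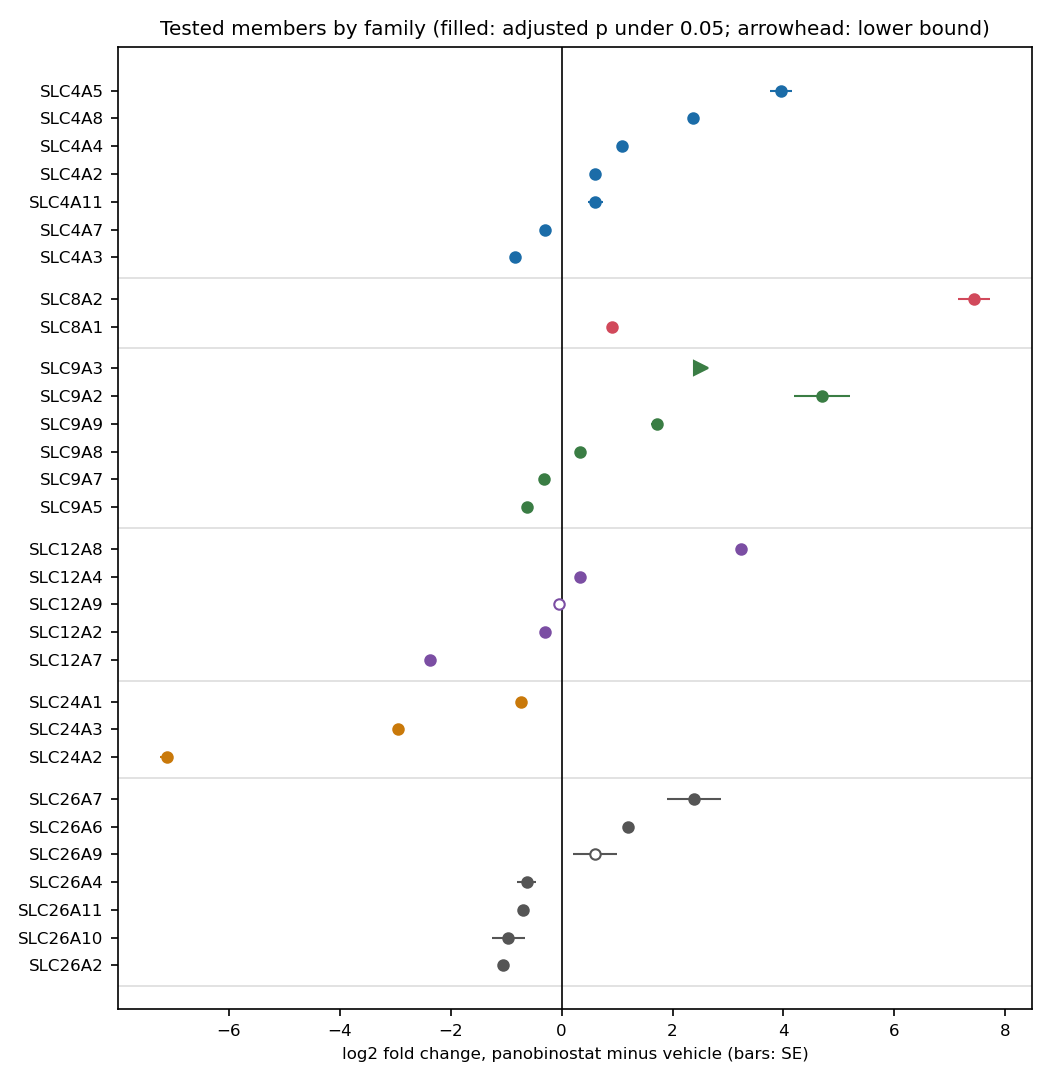
Log2 fold change (panobinostat minus vehicle, x axis) of tested members, grouped by family, with SE as bars; filled points passed the edgeR threshold, and the arrowhead of SLC9A3, which had 0 vehicle counts, marks its lower bound of 2.52. The fitted points of SLC8A2 and SLC9A2 rest on 3 vehicle counts each. The 3 SLC24A genes lie left of 0 and the 2 SLC8A genes right of it, while the other 4 families have members on both sides.

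The families differed in their balance of calls, where 41.8% of all genes tested were called higher and 41.0% lower. SLC24A had 3 of 3 tested members lower (median log2 fold change -2.95). SLC8A had 2 of 2 higher, of which SLC8A2 reached the filter's level in panobinostat libraries only. SLC9A had 6 of 8 higher and 2 lower (median 0.48), and SLC4A 5 of 7 higher and 2 lower (median 0.61). SLC12A was divided, with 3 of 6 higher and 2 lower (median 0.14), and SLC26A had 2 of 7 higher and 4 lower (median -0.63). With SLC9A3 placed at its lower bound, these medians were the same. Among members counted as higher, SLC4A5, SLC9A2, SLC9A3 and SLC26A7 also did not reach the filter's level in all vehicle libraries. Among those counted as lower, SLC24A2 and SLC26A10 did not reach it in all panobinostat libraries. The families hold 2 to 8 tested genes each and no test between them was made.

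Summed counts give a family's share of the library and are led by its abundant members. The SLC24A sum was 108.5, 112.8 and 112 CPM in vehicle and 23.4, 22.9 and 22.7 CPM with panobinostat, which is -2.27 on the log2 scale. The SLC8A sum was 6.35, 6.67 and 5.57 CPM in vehicle and 16.7, 17.1 and 16.8 CPM with panobinostat, which is 1.45 higher on the log2 scale. SLC26A went from 3190 ± 127 to 1559 ± 95.9 CPM (log2 difference -1.03). These 3 sums did not overlap between groups. SLC4A stood at 352 ± 9.16 CPM in vehicle and at 442.8 ± 14.1 CPM after treatment (log2 difference 0.33) and SLC9A at 169.6 ± 3.36 and 187.6 ± 1.08 CPM (0.15), again without overlap. The SLC12A sum was 291.3 ± 1.79 and 287.2 ± 3.86 CPM, with ranges that overlapped, and its difference of -0.02 turned to 0.10 with upper quartile scaling. Exact two-sided permutation tests over the libraries gave p = 0.1 for all of these sums but SLC12A (p = 0.2), and 3 libraries against 3 cannot go below 0.1. Adjusted over the 10 sums and ratios tested, these became 0.125 and 0.2.

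**Figure D2:**
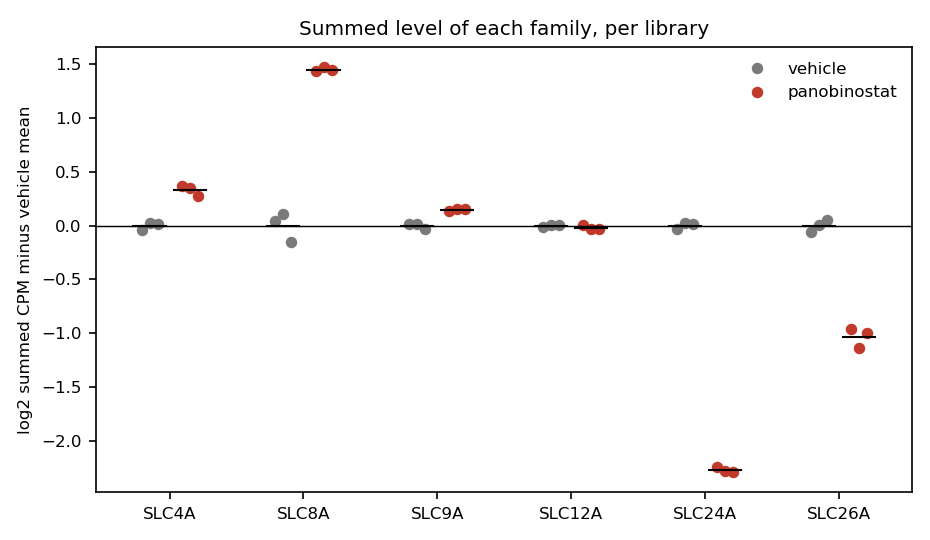
Log2 summed CPM of each family minus its vehicle mean (y axis), 1 point per library, with black bars for group means. The panobinostat libraries of SLC24A lie near -2.27 and those of SLC26A near -1.03, those of SLC8A near 1.45, and those of SLC12A beside the vehicle libraries.

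Among calcium exchangers, SLC24A2, the cone and neuronal potassium-dependent exchanger, stood at 36.8, 37.65 and 38.6 CPM in the vehicle libraries and at 0.359, 0.191 and 0.248 CPM with panobinostat. All 3 treated libraries lay far below all vehicle libraries, at 28 counts in total against 4213, a log2 fold change of -7.12 ± 0.12 (SE, edgeR adjusted p = 5.08e-18). SLC24A3, a broadly expressed relative, was at 45.1, 46.1 and 46.0 CPM in vehicle and at 6.38, 5.09 and 6.38 CPM with panobinostat (log2 fold change -2.95 ± 0.08). SLC24A1, first known from rod photoreceptors, fell less, from 26.6, 29.04 and 27.4 CPM to 16.5, 17.5 and 16.1 CPM (-0.73 ± 0.06). The falls of the 3 genes thus ranged from 1.66-fold to 140-fold, with no overlap of libraries in any, as in 83.4% of all genes tested. The 2 remaining members were near 0 and were not tested: SLC24A4 had 0 vehicle counts and 8 with panobinostat, and the melanosomal SLC24A5 had 2 and 4. Exons of SLC24A5 overlap the opposite-strand gene MYEF2 in the GENCODE annotation, so even these few reads are uncertain.

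The SLC8A genes, which exchange sodium for calcium without potassium, moved the other way. SLC8A1, the broadly expressed cardiac form, was at 6.33, 6.64 and 5.52 CPM in vehicle and at 11.7, 11.5 and 11.3 CPM with panobinostat, a log2 fold change of 0.90 ± 0.08 (edgeR adjusted p = 2.50e-08). SLC8A2, a form best known from brain, had 1, 0 and 2 counts in the vehicle libraries and 175, 201 and 176 counts with panobinostat. The ratio for SLC8A2 was 196, with an exact 95% interval of 66.7 to 952 that covers counting error only. SLC8A3 had 1 vehicle count and 16 panobinostat counts and was not tested.

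**Figure D3:**
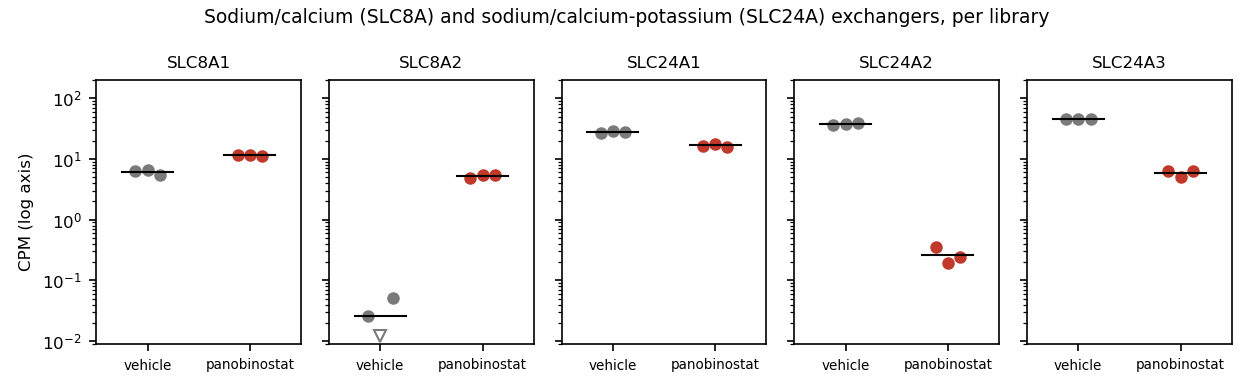
CPM (log y axis) of the 5 tested calcium exchangers in each library, 1 point per library, with black bars for group means and an open triangle at the bottom for a library with 0 counts. SLC8A1 and SLC8A2 are higher in all 3 panobinostat libraries, and SLC24A1, SLC24A2 and SLC24A3 are lower.

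The make-up of the calcium exchangers was compared within each library. The ratio of summed SLC8A counts to summed counts of SLC24A1 to SLC24A4, which does not depend on scaling, was 0.0585, 0.0591 and 0.0498 in vehicle and 0.714, 0.75 and 0.742 with panobinostat (log2 difference 3.72, exact two-sided permutation p = 0.1, the smallest possible, adjusted p = 0.125). Levels of different genes were compared per kilobase of exon, with exon lengths from GENCODE 29, which may not be the annotation used for counting. On that scale SLC24A3 held 63.0 ± 0.360% of the summed level of the 5 tested exchangers in vehicle and 31.2 ± 3.42% with panobinostat (SD, n = 3). SLC24A2 went from 19.0 ± 0.319% to 0.510 ± 0.159% of that sum and SLC8A2 from 0.0253 ± 0.0252% to 19.6 ± 1.54%. SLC8A1 went from 1.52 ± 0.144% to 10.8 ± 0.301%. Its place below SLC8A2 with panobinostat depends on the exon lengths used, 21922 bases for SLC8A1 and 5546 for SLC8A2. By CPM SLC8A1 was the higher there, at 11.5 ± 0.211 against 5.26 ± 0.369. SLC24A1, although lower in itself, went as a share from 16.5 ± 0.504% to 37.9 ± 2.31%. The sum itself went from 18.5 ± 0.315 to 4.85 ± 0.0835 CPM per kilobase.

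Calcium also leaves the cytosol through ATP-driven pumps. Of 9 pump genes looked up beside the exchangers, 8 were tested, 6 rose and 1 fell, so that 87.5% were called beside 82.8% of all genes. Over all genes tested 41.8% were called higher and 41.0% lower. ATP2B2 and another pump that rose reached the filter's level in panobinostat libraries only and were tested through them. The plasma membrane pump ATP2B1 rose from 147 ± 7.69 to 654 ± 29.4 CPM, its relative ATP2B4 from 487 ± 7.94 to 684 ± 25.4 CPM, and ATP2B2 13.4-fold from 0.151 ± 0.0329 CPM. ATP2A2, the pump of the endoplasmic reticulum, fell from 637 ± 11.6 to 340 ± 4.5 CPM (log2 fold change -0.90 ± 0.03).

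Among chloride cotransporters, SLC12A2 (NKCC1), which brings chloride into the cell with sodium and potassium, was at 126, 128 and 137 CPM in vehicle and at 110, 105.5 and 100 CPM with panobinostat. The groups did not overlap, as in 83.4% of all genes tested, and the log2 fold change was -0.31 ± 0.05 (edgeR adjusted p = 8.60e-06). Potassium-chloride cotransporters, which let chloride out, moved in both directions. SLC12A7 (KCC4) fell from 48.6, 50.8 and 43.98 CPM to 9.72, 8.07 and 9.995 CPM (-2.37 ± 0.08), whereas SLC12A4 (KCC1) rose from 42.0 ± 1.30 to 52.6 ± 0.654 CPM (0.32 ± 0.05). Per kilobase SLC12A7 stood at 7.99 ± 0.585 CPM in vehicle, above the 5.06 ± 0.156 of SLC12A4. With panobinostat the order was turned, at 1.548 ± 0.174 for SLC12A7 and 6.33 ± 0.0788 for SLC12A4.

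SLC12A8, a divergent member of the family with a transport role that is less settled, showed the largest rise of the family, from 2.89, 2.46 and 2.36 CPM to 24.5, 24.5 and 23.9 CPM (log2 fold change 3.24 ± 0.09, edgeR adjusted p = 9.49e-16). SLC12A9, another divergent member, was at 17.2 ± 1.48 and 16.7 ± 1.39 CPM. Its groups overlapped and it did not pass (log2 difference -0.04 ± 0.08), and the sign of that difference changed with upper quartile scaling and with the stricter filter. The renal SLC12A1 and SLC12A3 and the neuronal SLC12A5 had at most 15 counts in a library and were not tested.

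Kinases of the WNK pathway phosphorylate these cotransporters. Of 11 genes for kinases and regulators of chloride cotransporters, all tested, 5 rose and 4 fell (45.5% and 36.4%), close to the 41.8% and 41.0% of all genes. A gene among those that rose did not reach the filter's level in all vehicle libraries. WNK4 fell from 123 ± 4.60 to 47.2 ± 2.76 CPM, and WNK1 and STK39 (SPAK) fell with log2 changes of -0.19 and -0.36. NEDD4L, a ubiquitin ligase, rose from 140 ± 2.51 to 265 ± 2.18 CPM, and CAB39 and its relative CAB39L, scaffolds of the SPAK kinase, rose 1.72-fold and 2.27-fold.

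The tested bicarbonate transporters that depend on sodium and raise intracellular pH rose with 1 exception, SLC4A7, the most abundant of them in vehicle. Of all genes tested, 41.8% were called higher. SLC4A5 reached the filter's level in all panobinostat libraries but not in all vehicle libraries. SLC4A8, the sodium-driven chloride/bicarbonate exchanger, was at 15.1, 15.5 and 14.0 CPM in vehicle and at 77.8, 76.5 and 77.2 CPM with panobinostat, a log2 fold change of 2.38 ± 0.05 (edgeR adjusted p = 1.51e-16). SLC4A4 (NBCe1), the electrogenic sodium/bicarbonate cotransporter, rose from 4.41, 4.49 and 4.17 CPM to 9.34, 9.08 and 9.47 CPM (1.09 ± 0.09). SLC4A5 (NBCe2), its electrogenic relative, rose from 0.568, 0.406 and 0.207 CPM to 6.99, 5.66 and 5.79 CPM (3.96 ± 0.20). In all 3 genes every treated library exceeded every vehicle library, and groups did not overlap in 83.4% of all genes tested. Of the GENCODE exon bases of SLC4A5, 16.5% lie opposite MTHFD2, 47.5% are shared with AC006030.1 on the same strand, and the sources used here do not say whether counting used strand, so its counts are uncertain. MTHFD2 itself went from 209 to 80.3 CPM, and AC006030.1 was not among the genes tested. The part of either gene in the SLC4A5 counts was not tested.

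The exception was SLC4A7 (NBCn1), the electroneutral cotransporter and, per kilobase, the highest SLC4A member in vehicle at 20.7 ± 1.70 CPM per kilobase. It was at 183, 200 and 215 CPM in vehicle and at 173, 171 and 143 CPM with panobinostat, a log2 fold change of -0.30 ± 0.08 (edgeR adjusted p = 0.0102). Its lowest vehicle library lay just above its highest treated library, and the call was lost without vehicle replicate 3 (-0.26, adjusted p = 0.110) and with upper quartile scaling (-0.18, adjusted p = 0.0866). SLC4A7 made up 56.6% of the family's summed CPM in vehicle and 36.6% with panobinostat. The rest of the family together went from 153 ± 10.7 to 281 ± 3.67 CPM.

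The anion exchangers of the family, which exchange chloride for bicarbonate and load acid, moved apart. SLC4A2 (AE2), the widely expressed form, was at 118.5, 118.6 and 105 CPM in vehicle and at 172, 171 and 178.5 CPM with panobinostat (log2 fold change 0.61 ± 0.05, edgeR adjusted p = 1.89e-09). SLC4A3 (AE3), known from heart and brain, fell from 16.1, 15.6 and 14.0 CPM to 8.81, 8.75 and 7.89 CPM (-0.84 ± 0.08). Per kilobase SLC4A2 stood at 15.03 ± 1.02 in vehicle, below SLC4A7, and at 22.9 ± 0.517 with panobinostat, above the 16.9 ± 1.75 of SLC4A7 there. SLC4A11, which conducts protons in corneal endothelium, rose from 4.05, 3.94 and 2.67 CPM to 5.69, 5.42 and 5.04 CPM (0.60 ± 0.13). The ratio of SLC4A2 and SLC4A3 counts to those of the sodium-dependent SLC4A4, SLC4A7, SLC4A8 and SLC4A10 was 0.666, 0.609 and 0.509 in vehicle and 0.695, 0.702 and 0.812 with panobinostat. Those ranges were close but did not overlap (log2 difference 0.31, exact two-sided permutation p = 0.1, the smallest possible, adjusted p = 0.125). Without vehicle replicate 3 the difference was 0.21. SLC4A5 (44 vehicle and 647 panobinostat counts) was not part of this ratio, whereas SLC4A10 (19 and 23 counts) was. The erythrocyte exchanger SLC4A1, SLC4A9 and the neuronal SLC4A10 had at most 9 counts in a library and were not tested.

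Carbonic anhydrases supply bicarbonate to these transporters. Of 15 genes of that family 8 were tested, 5 rose and 2 fell, so that 87.5% were called beside 82.8% of all genes. Over all genes tested 41.8% were called higher and 41.0% lower. CA5B, a mitochondrial form, fell from 59.4 ± 3.14 to 13.1 ± 0.125 CPM and CA9, a membrane form induced by hypoxia, from 35.0 ± 4.47 to 25.98 ± 1.33 CPM. CA13 rose 2.72-fold and CA8, a relative without catalytic activity, 4.74-fold, to 8.73 ± 0.191 and 2.64 ± 0.311 CPM. CA2 had 1 vehicle count and 48 with panobinostat. Like another gene of the list that rose, it reached the filter's level in panobinostat libraries only and was tested through them.

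Among sodium/proton exchangers of the plasma membrane, SLC9A5 (NHE5), a neuronal form, fell from 8.03, 8.20 and 7.90 CPM to 5.80, 4.84 and 5.08 CPM (-0.62 ± 0.09), and 10.5% of its exon bases overlap FHOD1 on the opposite strand, a gene at 77.1 and 75.9 CPM that did not pass. The epithelial exchangers SLC9A2 and SLC9A3 came from near 0. SLC9A2 had 3 vehicle counts and 82 with panobinostat, a ratio of 29.1 (exact 95% interval 9.61 to 144, counting error only). SLC9A3 had 0 vehicle counts and 15, 23 and 11 in the treated libraries. Taking 3 counts in each vehicle library as the floor, it was at least 5.71-fold higher. SLC9A3 shares 41.9% of its exon bases with PP7080 on the same strand, which likewise went from 0 to 0.407 CPM, and 14.9% with EXOC3 on the opposite strand, so its reads may not be its own. The gastric SLC9A4 had 0 vehicle counts and 18 with panobinostat and was not tested.

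Exchangers of organelles set the pH of endosomes and the Golgi apparatus. SLC9A9 (NHE9), of late and recycling endosomes, rose from 3.12, 2.49 and 2.95 CPM to 9.14, 9.35 and 9.78 CPM (log2 fold change 1.72 ± 0.10, edgeR adjusted p = 4.68e-11). SLC9A8 (NHE8), of the Golgi, rose from 29.7 ± 1.88 to 37.2 ± 1.90 CPM (0.33 ± 0.06). SLC9A7 (NHE7), of the trans-Golgi network and the highest member of the family per kilobase in vehicle, fell from 72.5, 76.3 and 75.8 CPM to 60.9, 59.6 and 59.5 CPM (-0.32 ± 0.04). In SLC9A7, SLC9A8 and SLC9A9 the groups did not overlap, as in 83.4% of all genes tested. Per kilobase SLC9A7 stood at 7.46 ± 0.209 in vehicle against 4.27 ± 0.270 for SLC9A8, and with panobinostat at 5.98 ± 0.0747 against 5.36 ± 0.273. The pseudogene SLC9A7P1, a copy of SLC9A7, rose from 5.54 ± 0.299 to 19.1 ± 0.622 CPM (log2 fold change 1.79 ± 0.07), and reads of the pair may have been divided between them.

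Of 10 regulators and scaffolds of exchangers 8 were tested, 6 rose and 2 fell, where 82.8% of all genes were called, 41.8% as higher and 41.0% as lower. A gene among those that rose reached the filter's level in panobinostat libraries only and was tested through them. SLC9A3R1 (NHERF1), the scaffold that tethers exchangers to the cytoskeletal linker ezrin, rose from 26.03 ± 0.960 to 51.4 ± 4.97 CPM, whereas its relative SLC9A3R2 fell from 62.1 ± 5.20 to 40.6 ± 1.85 CPM. CHP1, the obligate calcium-binding partner of sodium/proton exchangers, rose 1.44-fold to 233 ± 4.54 CPM. The related TESC fell (log2 change -0.54). AHCYL2, a relative of the bicarbonate transporter activator IRBIT, rose 1.31-fold.

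SLC26A2, the sulfate transporter that supplies sulfate for proteoglycans, dominated the anion exchangers. It was at 3024, 3177 and 3278 CPM in vehicle, rank 7 among all genes by mean CPM, and at 1588, 1402 and 1543 CPM with panobinostat, rank 35. The highest treated library was far below the lowest vehicle library, and the log2 fold change was -1.06 ± 0.05 (edgeR adjusted p = 2.16e-12). Per kilobase it stood at 367 ± 14.9 in vehicle and 176 ± 11.2 with panobinostat, against at most 20.7 and 22.9 for any other member. It made up 98.6 ± 0.114% of the family's level per kilobase in vehicle and 95.7 ± 0.390% with panobinostat. Without SLC26A2, the other 10 members together went from 30.5 ± 1.20 to 48.2 ± 2.23 CPM. Without SLC26A6 as well, the remaining 9 went from 13.3 ± 0.357 to 8.96 ± 0.685 CPM, the direction of the whole family.

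The gain of the 10 thus rested on SLC26A6, an exchanger of chloride, bicarbonate and oxalate, which rose from 18.15, 17.5 and 15.8 CPM to 37.6, 39.3 and 40.8 CPM (log2 fold change 1.19 ± 0.06, edgeR adjusted p = 1.20e-11). SLC26A11, a sulfate and chloride transporter, fell from 10.7, 9.88 and 10.1 CPM to 5.61, 6.45 and 6.90 CPM (-0.70 ± 0.09). SLC26A4 (pendrin), the iodide transporter of thyroid and inner ear, fell from 1.70, 1.83 and 2.44 CPM to 1.41, 1.28 and 1.15 CPM (-0.63 ± 0.18), with groups that lay close together. SLC26A10 fell from 0.688 ± 0.104 to 0.347 ± 0.139 CPM (-0.96 ± 0.30). Of its exon bases 50% overlap B4GALNT1 on the opposite strand, which went from 34.8 to 16.9 CPM (-1.05), so the SLC26A10 counts cannot be told apart from reads of that gene. SLC26A7 had 8 vehicle counts and 41 with panobinostat (2.39 ± 0.48), and SLC26A9 21 and 30 counts, with overlapping groups and no call. SLC26A1, SLC26A3, SLC26A5 (prestin, the motor protein of outer hair cells) and SLC26A8 had at most 13 counts in a library and were not tested.

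**Figure D4:**
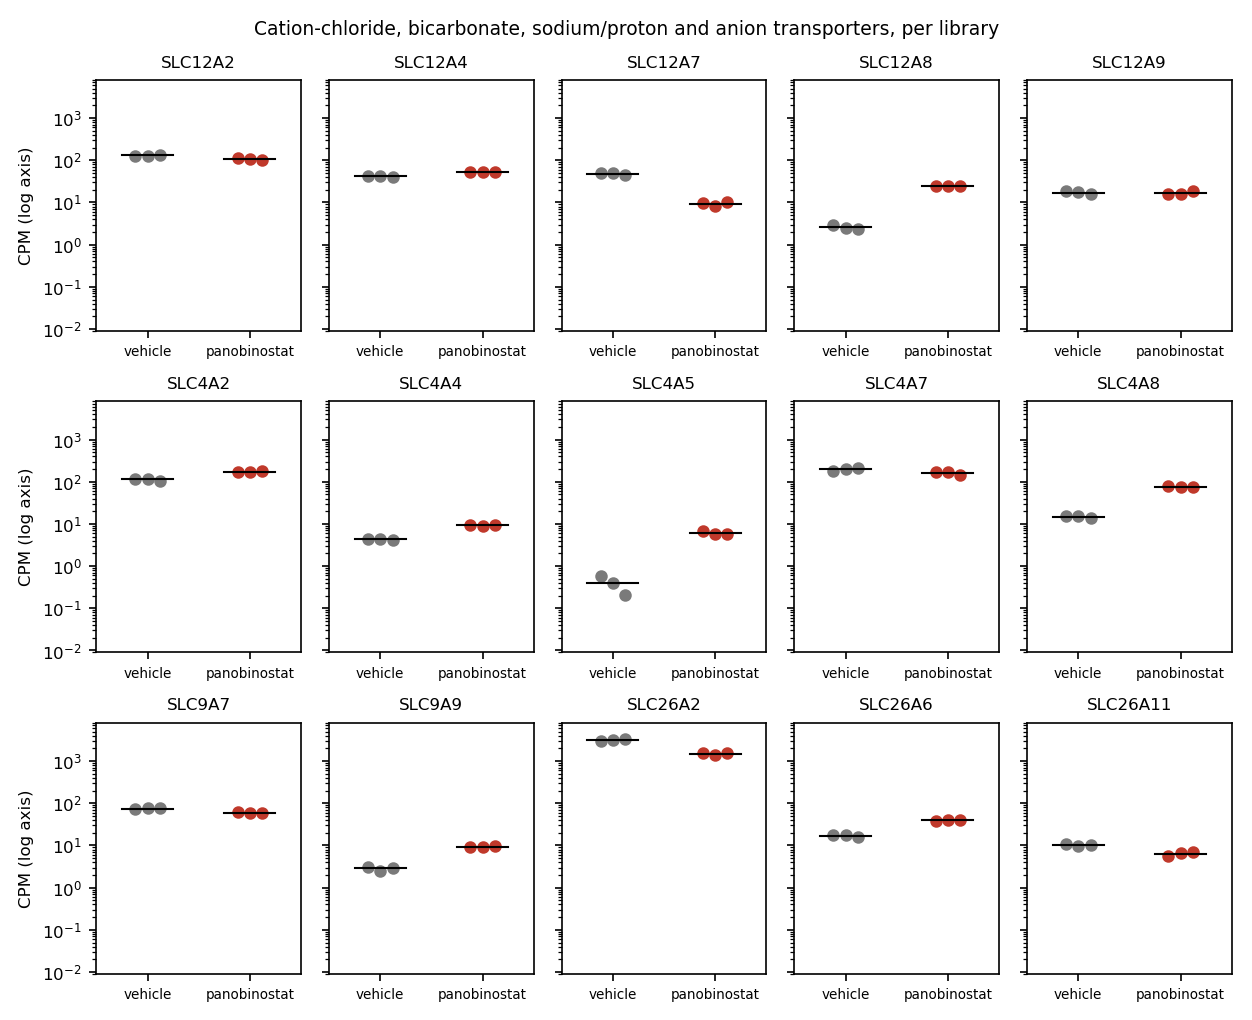
CPM (log y axis) of 15 SLC12A, SLC4A, SLC9A and SLC26A members in each library, 1 point per library, with black bars for group means. SLC12A8, SLC4A8 and SLC4A5 are higher and SLC12A7 and SLC26A2 lower in all 3 panobinostat libraries, whereas the groups of SLC12A2 and SLC4A7 lie close together.

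The 14 untested members were tissue-restricted carriers at the edge of detection, with at most 15 counts in any library. They held 52 counts in the vehicle libraries together and 148 with panobinostat, 8 of them had 0 vehicle counts, and 13 of the 14 had more counts with panobinostat. When the filter was dropped, 6 of them passed the edgeR test as higher (SLC4A9, SLC8A3, SLC9A4, SLC12A5, SLC24A4 and SLC26A5) and 0 as lower. Among all 5491 genes below the filter in that fit, 22.1% were called higher and 3.11% lower, and 71.4% had more counts with panobinostat, so low genes at large leaned the same way. No member had 0 counts in all 6 libraries.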

How the data were processed

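Bulk RNA of 6 A375 libraries, 3 of vehicle and 3 of 50 nM panobinostat for 24 h, was taken from the authors' deposited table of raw counts by gene symbol, which are not normalized. The table's name gives STAR as the aligner, and the sources used here name no version, genome build, annotation or strand setting. Of 25435 lines, 92 spike-in lines with 0 counts were left out. Columns were matched by title and grouped by the labelled dose. Genes were kept with filterByExpr (15499), scaled by TMM and tested on group alone with edgeR 4.0.16 (glmQLFit with robust = TRUE, glmQLFTest) in R 4.3.3, Benjamini-Hochberg adjustment and a threshold of 0.05. The SE is the log2 fold change over the root of F. CPM use TMM-scaled sizes. Levels per kilobase divide by exon bases of GENCODE 29. Floors and intervals cover counting error only. Members, lists and comparisons were chosen with earlier results of these data known. Members that passed the filter may be named, with values per library for those changed at least 2-fold at 1 CPM or more and the highest of each family, and up to 3 partner genes per direction and list. Values per library of other members were added after seeing the data. Alternatives tried were scaling by RLE, by upper quartile or by library size alone, no filter, a 5 CPM filter in 3 libraries, DESeq2 1.42.0, limma-voom 3.58.1, a replicate block, a test against a 2-fold change, thinning to the smallest total, and leaving out each library. Steps were tested on simulated data with 200 genes changed. There edgeR recovered 74% of 1.25-fold and 100% of 4-fold changes, and 6.45% of its calls were unchanged genes. Far fewer genes changed in that simulation than were called here, so it does not show how scaling or errors behave in these data. Some members, and ratios that use them, are not reported here, although counts and sums over a family include them.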

Additional observations from a re-analysis of the deposited data

How the results depend on the processing

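The counts of 18 members higher and 13 lower, and the family counts, held within 1.5 times under RLE and library-size scaling, DESeq2, limma-voom and thinning. Against a 2-fold change (edgeR's glmTreat) 9 members were higher and 3 lower. Those higher were 2 SLC4A, 1 SLC8A, 3 SLC9A, 1 SLC12A and 2 SLC26A genes. Those lower were 2 SLC24A genes and 1 SLC12A gene, with 0 lower in SLC4A, SLC9A and SLC26A. SLC26A2 (-1.06) and SLC4A4 (1.09) did not pass that test. With upper quartile scaling, which shifted the median of all genes by 0.12, 1 SLC4A gene was lower, the SLC12A sum turned to 0.10 and SLC12A9 to 0.079. With the 5 CPM filter 26 members were tested, with 1 SLC8A and 1 SLC26A gene higher and 2 SLC26A genes lower, because low genes were no longer tested, and SLC12A9 was at 0.0533. With no filter 1 SLC24A gene (SLC24A4) was higher and 24 members in all. Leaving out each library in turn left 18 members higher and 12 to 13 lower, and 1 to 2 SLC4A genes lower, the lower value without vehicle replicate 3, where SLC4A7 was lost. Of 520 recomputed values of members, 497 kept their direction and side of the threshold, 21 no longer passed and 2 changed sign. With a replicate block, by the number that ends the titles, 18 members were higher and 13 lower. Those numbers share no stated origin, and the deviations of same-numbered libraries correlated at -0.141 to -0.0576 across genes, with 0 of 6 libraries correlating best with their own number. Depth limits the 14 untested members, since 3 counts are 0.0774 to 0.0928 CPM.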

Other observations

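Relatives of these carriers that carry other names were also measured. SLC9B2, a sodium/proton exchanger of a separate branch, fell from 16.5 ± 0.500 to 5.39 ± 0.196 CPM (SD, n = 3), a log2 fold change of -1.61 ± 0.08 (edgeR adjusted p = 2.16e-12). SLC8B1, the sodium/calcium exchanger of mitochondria, rose from 7.49 ± 0.253 to 10.97 ± 0.505 CPM (0.55 ± 0.08). SLC9B1, SLC9C1 and SLC9C2 had too few counts to be tested.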
